A study of Mus musculus with 8 samples.

Results

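The genes described here encode the proteasome: its 20S core, the 3 immunoproteasome catalytic subunits, the 19S regulatory particle, the activators, 1 inhibitor and the assembly chaperones of the core. Members were the protein-coding rows of the deposited gene count table whose symbol starts with Psma to Psmg followed by a digit, which gave 50 of 54532 genes. Of these, 49 were among the 12234 genes tested. The exception was Psmb11, a catalytic subunit of thymic epithelium, which had 1 read in the 8 libraries together. The members fell into 8 genes of 20S alpha subunits, 8 of 20S beta subunits, 3 of immuno beta subunits and 20 named for the 19S particle. These 20 include Psmd5, Psmd9 and Psmd10, which encode assembly chaperones of its base. There were also 5 activators, 1 inhibitor, 4 assembly chaperones of the core and Psmc3ip. The last matched by name alone and encodes a recombination factor, not a proteasome subunit.

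RNA sequencing was done on mouse bone marrow-derived macrophages (BMDMs), which are macrophages grown from marrow cells. Cells named here IL-4 then LPS were first given 20 ng/ml of interleukin 4 (IL-4), which polarises macrophages towards an alternative state, over 24 h. After it was washed out they were given 100 ng/ml of lipopolysaccharide (LPS), the endotoxin of Gram-negative bacteria, over 4 h. The LPS group received LPS alone at that dose and time, the IL-4 group received IL-4 alone at that dose and time, and the control group received neither. Each group held 2 libraries, numbered 1 and 3. The strain, sex and age of the mice, and whether IL-4 cells were washed and kept for a further 4 h, are not given in the sources used here. The labels do not say whether the libraries of a group came from separate animals or cultures, so p-values measure the spread between these samples, which may be technical.

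The proteasome degrades ubiquitin-tagged proteins. Its 20S core is a barrel of alpha rings that gate entry and beta rings that hold the catalytic sites, and the 19S particle caps the barrel, binds ubiquitin, unfolds substrates with a ring of ATPases and removes the ubiquitin. Interferon and inflammatory signals are known to induce Psmb8, Psmb9 and Psmb10, whose products replace the constitutive catalytic subunits encoded by Psmb5, Psmb6 and Psmb7 in newly built cores. The PA28 activator, encoded by Psme1 and Psme2, is induced by the same signals, and both changes alter the peptides that macrophages can present on MHC class I.

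The libraries held 7924932 to 9431852 counted reads, of which the members took 0.416% to 0.543%. Levels below are CPM, read counts brought to a common library size with trimmed-mean (TMM) factors, and a fold change is therefore relative to the bulk of the tested genes. TMM factors ran from 0.786 to 0.866 in the 4 LPS-exposed libraries and from 1.17 to 1.25 in the other 4. Macrophage markers summed to 11627 to 24773 CPM in all libraries, and T and NK cell markers had no read. Dendritic cell markers summed to 8.82 to 13.7 CPM in IL-4 then LPS cells, 7.18 to 12.3 CPM in LPS cells, 1.27 to 2.05 CPM in IL-4 cells and 1.21 to 1.58 CPM in control cells. Mast cell and basophil markers, nearly all Hdc in the LPS-exposed libraries and with Mcpt8 and Fcer1a at 0 in all, summed to 61.1 to 90.1, 53.3 to 79.4, 0.0893 to 0.725 and 0.173 to 0.495 CPM in those groups, and stromal markers, mainly Pdgfrb in the LPS-exposed libraries, to 22.3 to 42.7, 17.4 to 45.5, 4.17 to 4.73 and 3.96 to 5.37 CPM. The neutrophil list lay at 0.865 to 7.46 CPM in all libraries, and the B cell and erythroid lists were under 1 CPM. The part of these markers in the results was not tested. In these bulk samples, fewer cells of a type and less RNA per cell cannot be told apart. For 28 of the 49 tested members (57.1%), replicate 3 was above replicate 1 in all 4 groups, as it was for 18.3% of all tested genes. The part of this difference in the results was not tested.

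LPS raised many proteasome genes, and none was called lower in the main fit with TMM factors. Without the filter on low counts, or with the replicate number as a block, 1 member was called lower for LPS against control. With library sizes alone as the scale, 15 members were called lower for LPS against control and 11 for IL-4 then LPS against IL-4. Of all tested genes, 47.0% and 43.5% were lower on that scale. With upper-quartile factors 2 and 1 members were lower, beside 29.0% and 28% of all tested genes. The counts that follow are from the main fit. In LPS cells against control cells, 25 of 49 tested members were called higher and 0 lower at an adjusted p below 0.05 (edgeR, quasi-likelihood, Benjamini-Hochberg over the 12234 genes). Of all tested genes, 21.8% were called higher and 18.6% lower. In IL-4 then LPS cells against IL-4 cells, 23 members were called higher and 0 lower, where 20.7% of all tested genes were called higher and 18.6% lower. The comparisons share no library. In both, 21 members were called higher, which is 21 of 25 in the first and 21 of 23 in the second. The same overlap over all tested genes was not computed, so whether the members' overlap exceeds it is not known. Without a test, both libraries lay above both of the other group for 37 members and below for 4 in the first comparison (35.9% and 36.7% of all tested genes), and for 34 and 3 in the second (34.8% and 36.9%). At an unadjusted p below 0.05 there were 27 members in each, where 49.8% and 48.1% of all tested genes passed. The members' median log2 fold change was 0.46 and 0.39, beside -0.01 and -0.04 over all tested genes. The classes of 3 or more genes had the same order in both comparisons: immuno beta subunits had the highest median (2.32 and 1.76), then activators (1.51 and 1.44), 20S alpha (0.91 and 0.74), constitutive 20S beta (0.46 and 0.47), 19S (0.38 and 0.33) and assembly chaperones (0.11 and -0.36).

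**Figure D1:**
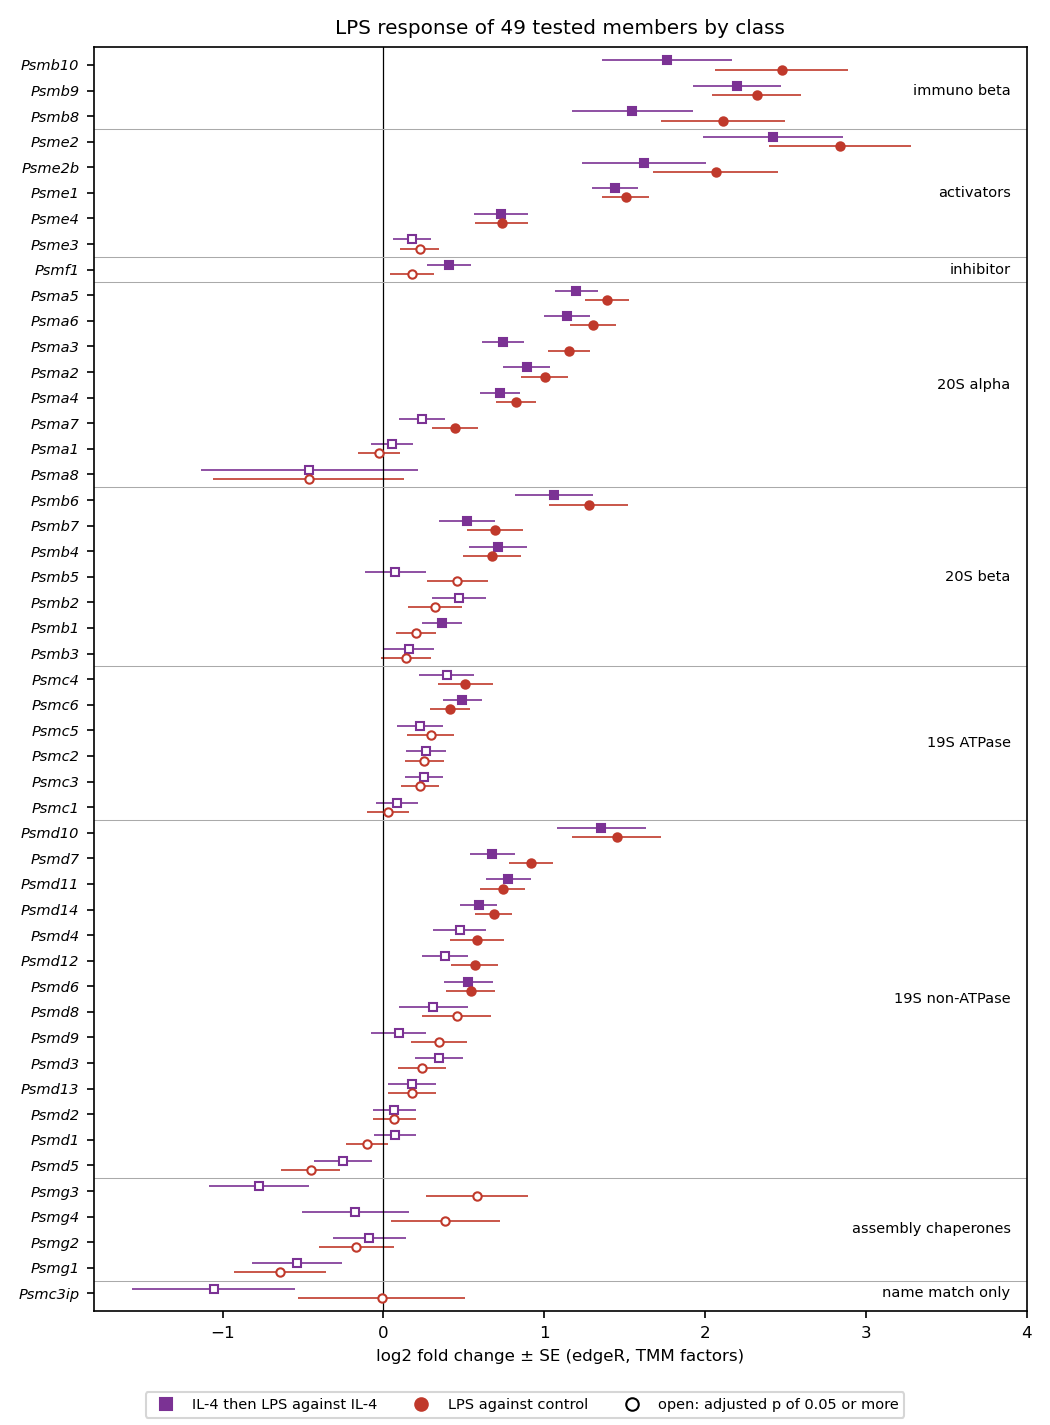
Log2 fold change ± SE of each of the 49 tested members, for IL-4 then LPS against IL-4 (squares) and LPS against control (circles), grouped by class; filled symbols passed the test and open ones did not. All 3 immuno beta genes and 4 of 5 activators are filled in both comparisons, while no assembly chaperone is.

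All 3 immunoproteasome genes rose with LPS, with and without earlier IL-4. Psmb8, the immuno counterpart of Psmb5, lies at chr17:34197721-34201454 on the plus strand (mm10) in the MHC region. It was at 156 and 236 CPM in IL-4 then LPS cells, 182 and 245 CPM in LPS cells, 48.8 and 85.0 CPM in IL-4 cells, and 34.6 and 64.3 CPM in control cells. Every LPS-exposed library was above every unexposed one. The log2 fold change was 2.11 ± 0.38 (SE) for LPS against control, which is 4.32-fold (adjusted p = 0.00359, edgeR), and 1.55 ± 0.38 for IL-4 then LPS against IL-4, which is 2.93-fold (adjusted p = 0.0138).

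Psmb9, the counterpart of Psmb6, lies in the same region at chr17:34181988-34187764 on the minus strand, with Tap1 between the pair. It was at 140 and 157 CPM in IL-4 then LPS cells, 160 and 168 CPM in LPS cells, 24.1 and 40.4 CPM in IL-4 cells, and 26.2 and 39.5 CPM in control cells. The LPS-exposed libraries lay within a narrow band far above the rest. The log2 fold change was 2.32 ± 0.27 for LPS against control (5.0-fold, adjusted p = 0.000419) and 2.20 ± 0.27 for IL-4 then LPS against IL-4 (4.60-fold, adjusted p = 0.00056). Psmb9 overlaps Tap1, a peptide transporter gene on the opposite strand, and the sources used here do not say whether counting used strand. Over the 8 libraries Tap1 had 31183 reads and Psmb9 5943. The gene intervals share only chr17:34187553-34187764, and reads of Tap1 counted for Psmb9 there cannot be told apart from its own.

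Psmb10, the counterpart of Psmb7, lies on another chromosome, at chr8:105935735-105938444 on the minus strand. It was at 327 and 456 CPM in IL-4 then LPS cells, 412 and 542 CPM in LPS cells, 80.9 and 150 CPM in IL-4 cells, and 56.5 and 115 CPM in control cells. Again no unexposed library reached the lowest exposed one. The log2 fold change was 2.48 ± 0.41 for LPS against control (5.56-fold, adjusted p = 0.00238) and 1.76 ± 0.40 for IL-4 then LPS against IL-4 (3.39-fold, adjusted p = 0.0107). In the second comparison the calls of Psmb8 and Psmb10 depended on single libraries. Without IL-4 replicate 1 the adjusted p was 0.0835 for Psmb8 and 0.0632 for Psmb10, and without IL-4 then LPS replicate 3 it was 0.0809 and 0.0579.

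**Figure D2:**
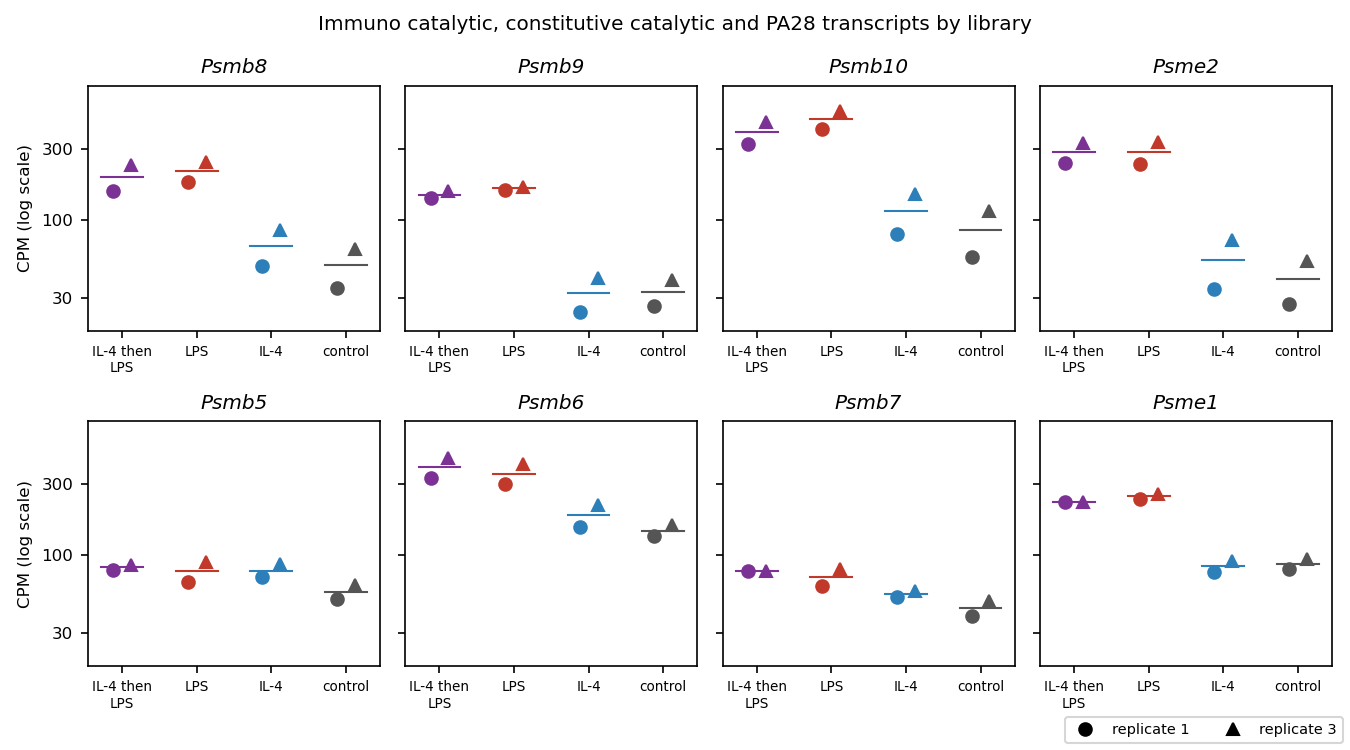
TMM-scaled CPM (log axis) of the immuno genes, their constitutive counterparts and the PA28 genes in each library, with replicate 1 as circles, replicate 3 as triangles and lines at the group means (n = 2). Psmb8, Psmb9, Psmb10, Psmb6, Psmb7, Psme1 and Psme2 separate the LPS-exposed libraries from the others, Psmb7 by a small gap, while Psmb5 does not.

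The constitutive catalytic genes differed in their response. Psmb6, the caspase-like subunit, was at 331 and 450 CPM in IL-4 then LPS cells, 301 and 410 CPM in LPS cells, 156 and 218 CPM in IL-4 cells, and 134 and 160 CPM in control cells. All LPS-exposed libraries stood above the others. It rose by a log2 fold change of 1.28 ± 0.24 for LPS against control (adjusted p = 0.00458) and 1.06 ± 0.24 for IL-4 then LPS against IL-4 (adjusted p = 0.0106). The second call was lost without IL-4 replicate 1 (adjusted p = 0.0744) or IL-4 then LPS replicate 3 (0.0702).

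Psmb7, the trypsin-like subunit, was at 78.2 and 78.2 CPM in IL-4 then LPS cells, 61.7 and 81.2 CPM in LPS cells, 52.0 and 57.0 CPM in IL-4 cells, and 39.0 and 49.4 CPM in control cells. The groups did not overlap, but the gap between the lowest exposed and the highest unexposed library was small. The log2 fold changes were 0.69 ± 0.18 (adjusted p = 0.0156) and 0.52 ± 0.17 (adjusted p = 0.0467) for LPS against control and IL-4 then LPS against IL-4. The first was lost without control replicate 1 (adjusted p = 0.142) or LPS replicate 3 (0.100), and the second when any library of its groups was left out (0.105 to 0.211) and in DESeq2 (0.0634). Psmb7 overlaps Nek6 on the opposite strand, which had 5509 reads beside its 4330.

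Psmb5, the chymotrypsin-like subunit, was at 79.8 and 86.3 CPM in IL-4 then LPS cells, 66.4 and 89.7 CPM in LPS cells, 71.0 and 86.9 CPM in IL-4 cells, and 50.6 and 62.8 CPM in control cells. The IL-4 and IL-4 then LPS libraries overlapped. The log2 fold change was 0.46 ± 0.19 for LPS against control (adjusted p = 0.0898) and 0.07 ± 0.19 for IL-4 then LPS against IL-4 (adjusted p = 0.791). Without LPS replicate 1 the first passed the test (adjusted p = 0.0436), and with library sizes alone as the scale both values were negative (-0.14 and -0.45).

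The ratio of an immuno gene to its constitutive counterpart within a library does not depend on scaling. The log2 ratio of read counts of Psmb8 to Psmb5 was 0.97 and 1.45 in IL-4 then LPS cells and 1.45 and 1.45 in LPS cells. It was -0.54 and -0.03 in IL-4 cells and -0.55 and 0.03 in control cells. In all 4 LPS-exposed libraries Psmb8 had more reads than Psmb5. The mean was 1.33 ± 0.24 in the LPS-exposed libraries and -0.27 ± 0.32 in the others (SD, n = 4 each), a difference of 1.60 or 3.03-fold (exact two-sided permutation p = 0.0286, the smallest that 4 against 4 libraries can give, and 0.0286 after adjustment over 3 ratios). Permuted only within replicate numbers, the exact p was 0.0556 for each of the 3 ratios, the smallest possible there.

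Psmb10 to Psmb7 gave 2.06 and 2.54 in IL-4 then LPS cells, 2.74 and 2.74 in LPS cells, 0.64 and 1.40 in IL-4 cells, and 0.53 and 1.22 in control cells. Psmb9 to Psmb6, where the constitutive partner itself rose, gave -1.24 and -1.52 in IL-4 then LPS cells, -0.91 and -1.29 in LPS cells, -2.70 and -2.43 in IL-4 cells, and -2.35 and -2.02 in control cells. Neither ratio overlapped between exposed and unexposed libraries. The differences were 1.57 for Psmb10 to Psmb7 and 1.13 for Psmb9 to Psmb6, each with the same exact permutation p of 0.0286. Per kilobase of the deposited gene length, Psmb10 made up 89.3% to 93.1% of the sum of Psmb10 and Psmb7 in LPS-exposed libraries and 74.4% to 84.1% in the others. Psmb8 made up 39.1% to 47.4% of its pair in LPS-exposed libraries and 18.3% to 25.2% in the others. For Psmb9 the shares were 15.1% to 21.3% in LPS-exposed libraries and 7.32% to 11.2% in the others. These shares are of transcript reads per length, not of assembled protein. For 46 of the 50 members the deposited length is all annotated exons merged, so the shares depend on the annotation.

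**Figure D3:**
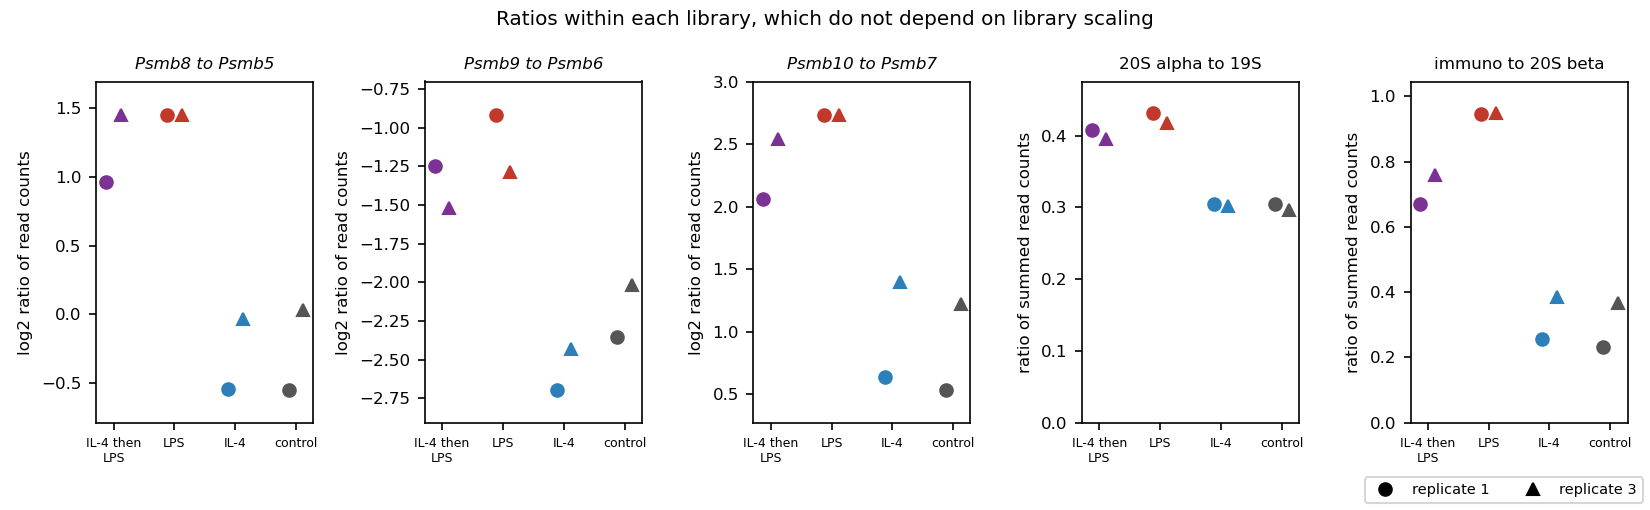
Ratios within each library by group (circles replicate 1, triangles replicate 3): log2 ratio of read counts for the 3 pairs of immuno and constitutive genes, and ratios of summed counts of 20S alpha to 19S and of immuno beta to constitutive 20S beta genes. In all 5 panels the 4 LPS-exposed libraries lie above the 4 others.

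Sequence before the RefSeq start is shown for catalytic genes, since members of the pairs moved unequally. RefSeq promoters (GRCm38.p6, the build called mm10 in the labels) were given for 42 of the 50 members, as 45 sequences. The 250 bases before each RefSeq start, which can lie inside a gene with an earlier annotated start, were searched on both strands for 4 motifs. These were GAS (TTCNNNGAA, the gamma-activated site), ISRE (GAAA, 2 free bases, GAAA, bound by interferon regulatory factors), kappa B (GGGA, 2 free bases, TTCC, bound by NF-kappa B) and ARE (TGACNNNGC, bound by the bZIP factors encoded by Nfe2l1 and Nfe2l2 with small Maf proteins). GAS letters were found in 2 of the 45 (4.44%) and in 7.02% of all 32851 promoters. ISRE letters were in 6.67% of the members' promoters and 2.98% of all, kappa B letters in 2.22% and 1.21%, and ARE letters in 11.1% and 10.2%. A match is a description of these letters, not a binding site, and an absent match says nothing of the factor.

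The stretches below run 5′ to 3′ on the gene's strand, with motif matches in capitals. Psmb8 is from chr17:34198088-34198117 (plus), the 30 bases around its GAS match. This stretch is not upstream of the gene: it lies inside the deposited gene interval, and all 250 bases of its window are annotated as exon in GENCODE M21. Psmb10 is from chr8:105938445-105938642 (minus), with no match. Psmb5 is from chr14:54618023-54618245 (minus) and Psmb6 from chr11:70525107-70525356 (plus), each with 1 ARE match. The other 3 stop before the first base annotated as exon there, and each stretch holds at most 1 match, so none overlap.
Psmb8: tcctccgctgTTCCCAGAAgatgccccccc
Psmb10: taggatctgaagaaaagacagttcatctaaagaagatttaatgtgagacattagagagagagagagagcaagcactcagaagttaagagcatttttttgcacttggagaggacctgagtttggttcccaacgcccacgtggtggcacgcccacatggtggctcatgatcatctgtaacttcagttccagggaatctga
Psmb5: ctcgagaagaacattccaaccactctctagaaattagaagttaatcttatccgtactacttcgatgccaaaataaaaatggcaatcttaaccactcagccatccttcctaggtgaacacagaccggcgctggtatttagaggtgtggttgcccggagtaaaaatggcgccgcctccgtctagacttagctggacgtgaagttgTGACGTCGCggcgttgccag
Psmb6: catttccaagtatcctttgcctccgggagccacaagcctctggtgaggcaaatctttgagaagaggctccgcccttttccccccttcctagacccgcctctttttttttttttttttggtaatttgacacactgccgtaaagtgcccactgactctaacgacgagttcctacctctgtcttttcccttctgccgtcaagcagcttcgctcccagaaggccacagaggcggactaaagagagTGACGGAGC
The GAS match of Psmb8, inside annotated exon, begins 97 bases before the RefSeq start, and the ARE matches of Psmb5 and Psmb6 begin 47 and 9 bases before it. Psmb5 and Psmb6 both hold the ARE letters, as 10.2% of all promoters do. Among the immuno genes a match was found only for Psmb8, in a window that is exonic. Only the 42 members with a RefSeq promoter were searched. The part of these letters in the LPS values was not tested.

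The PA28 genes rose together with the immuno subunits, and the activator genes Psme3 and Psme4 moved less. Psme2, which encodes the beta chain of PA28, lies at chr14:55587441-55591113 on the minus strand. It was at 243 and 333 CPM in IL-4 then LPS cells, 239 and 334 CPM in LPS cells, 34.1 and 73.3 CPM in IL-4 cells, and 27.3 and 52.8 CPM in control cells. Exposed and unexposed libraries were far apart, and replicate 3 was the higher one in each group. Psme2 had the largest fold change of the members in both comparisons: a log2 value of 2.84 ± 0.44 for LPS against control (7.16-fold, adjusted p = 0.00168) and 2.42 ± 0.43 for IL-4 then LPS against IL-4 (5.37-fold, adjusted p = 0.00345).

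Psme1, which encodes the alpha chain, lies close to it at chr14:55578123-55581529 on the plus strand. It was at 228 and 230 CPM in IL-4 then LPS cells, 241 and 257 CPM in LPS cells, 77.4 and 91.2 CPM in IL-4 cells, and 80.9 and 94.6 CPM in control cells. Its replicates were close, and the exposed libraries were well above the others. The log2 fold change was 1.51 ± 0.14 (adjusted p = 0.000144) for LPS against control and 1.44 ± 0.14 (adjusted p = 0.000187) for IL-4 then LPS against IL-4. These were the smallest adjusted p-values among the members. In read counts, Psme2 to Psme1 had a log2 ratio of 0.25 ± 0.25 in LPS-exposed libraries and -0.98 ± 0.53 in the others (SD, n = 4 each).

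Psme2b is a copy of Psme2 with 789 of 794 aligned transcript bases identical (99.4%). Reads may have been divided between them, so the values of both genes are uncertain. On the same strand Psme2b also overlaps 9930111J21Rik1 and Gm12185, which had 2700 and 770 reads beside its 8389. Psme2b was counted at 165 and 216 CPM in IL-4 then LPS cells, 186 and 248 CPM in LPS cells, 46.1 and 77.7 CPM in IL-4 cells, and 33.2 and 70.5 CPM in control cells. Its pattern over the libraries was that of Psme2, with log2 fold changes of 2.07 ± 0.39 and 1.62 ± 0.38. The second call was lost without IL-4 replicate 1 (adjusted p = 0.0774) or IL-4 then LPS replicate 3 (0.0636). Psme4, which encodes the nuclear activator PA200, was at 140 and 151 CPM in IL-4 then LPS cells, 185 and 181 CPM in LPS cells, 92.8 and 82.2 CPM in IL-4 cells, and 126 and 93.4 CPM in control cells. It rose by 0.74 ± 0.17 for LPS against control (adjusted p = 0.00931) and 0.73 ± 0.17 for IL-4 then LPS against IL-4 (adjusted p = 0.0101). Those calls were lost without control replicate 3 (adjusted p = 0.0628), and without IL-4 replicate 3 (0.0587) or IL-4 then LPS replicate 3 (0.0557).

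Psme3 encodes PA28 gamma, a nuclear relative that interferon is not known to induce. It was at 89.1 and 91.3 CPM in IL-4 then LPS cells, 84.0 and 95.5 CPM in LPS cells, 79.4 and 80.2 CPM in IL-4 cells, and 75.5 and 78.1 CPM in control cells. The values lay close together in all groups, and neither difference passed the test (0.22 ± 0.12, adjusted p = 0.166, and 0.18 ± 0.12, adjusted p = 0.272). Within libraries, Psme1 to Psme3 had a log2 count ratio of 1.41 ± 0.09 in LPS-exposed libraries and 0.13 ± 0.13 in the others. Psmf1, which encodes the inhibitor PI31, was at 40.7 and 41.1 CPM in IL-4 then LPS cells, 39.1 and 34.0 CPM in LPS cells, 30.4 and 31.3 CPM in IL-4 cells, and 33.8 and 30.8 CPM in control cells. It passed the test after earlier IL-4 (0.41 ± 0.14, adjusted p = 0.0479) but not in LPS against control (0.18 ± 0.14, adjusted p = 0.329), and the first call was lost whenever any of the 8 libraries was left out (adjusted p = 0.0529 to 0.186).

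Most of the 20S alpha genes, which build the outer rings and the gate, rose with LPS. For LPS against control 6 of 8 were called higher, and for IL-4 then LPS against IL-4 5 of 8. The shares of all tested genes called higher were 21.8% and 20.7%. Psma5 was at 134 and 151 CPM in IL-4 then LPS cells, 137 and 148 CPM in LPS cells, 57.5 and 66.7 CPM in IL-4 cells, and 53.8 and 54.9 CPM in control cells. Its log2 fold change was 1.39 ± 0.13 (adjusted p = 0.000149) for LPS against control and 1.20 ± 0.13 (adjusted p = 0.000325) for IL-4 then LPS against IL-4. Psma6 was at 219 and 208 CPM in IL-4 then LPS cells, 210 and 226 CPM in LPS cells, 93.7 and 99.6 CPM in IL-4 cells, and 79.1 and 97.5 CPM in control cells. For both genes the 4 exposed libraries were more alike than the distance to the nearest unexposed one.

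Psma6 rose by 1.31 ± 0.14 and 1.14 ± 0.14 on the log2 scale, Psma3 by 1.15 ± 0.13 and 0.75 ± 0.13, Psma2 by 1.0 ± 0.15 and 0.89 ± 0.15, and Psma4 by 0.82 ± 0.13 and 0.73 ± 0.12, for LPS against control and for IL-4 then LPS against IL-4. Adjusted p-values for these 4 genes ran from 0.000287 to 0.00304. Psma7 passed the test for LPS against control (0.45 ± 0.14, adjusted p = 0.0403), a call lost whenever any of the 8 libraries was left out (0.0556 to 0.261), and did not pass for IL-4 then LPS against IL-4 (0.24 ± 0.14, adjusted p = 0.226). Psma1 was at 130 and 120 CPM in IL-4 then LPS cells, 123 and 128 CPM in LPS cells, 119 and 123 CPM in IL-4 cells, and 138 and 117 CPM in control cells. Its groups overlapped, with log2 fold changes of -0.03 ± 0.13 and 0.05 ± 0.13 (adjusted p = 0.893 and 0.785). Psma8, a testis form of an alpha subunit, was near the limit of detection at 0.389 to 1.58 CPM and did not pass either test.

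Among the constitutive beta genes 3 of 7 tested members rose for LPS against control, beside 21.8% of all tested genes. For IL-4 then LPS against IL-4, 4 of 7 rose, beside 20.7%. Besides Psmb6 and Psmb7, the genes that rose included Psmb4, a structural subunit without a catalytic site. Psmb4 was at 176 and 213 CPM in IL-4 then LPS cells, 154 and 179 CPM in LPS cells, 105 and 132 CPM in IL-4 cells, and 94.9 and 114 CPM in control cells. Its exposed libraries were all above the unexposed ones. The log2 fold change was 0.67 ± 0.18 (adjusted p = 0.0192) and 0.71 ± 0.18 (adjusted p = 0.0156). Neither call held without replicate 1 of the unexposed group (0.163 and 0.114) or replicate 3 of the exposed one (0.107 and 0.0998). Psmb1 passed in the second comparison and not in the first (0.37 ± 0.12, adjusted p = 0.0487, beside 0.21 ± 0.12, adjusted p = 0.223), and any left-out library ended that call (0.0636 to 0.252). The structural subunit genes Psmb2 and Psmb3 did not pass, at 0.32 ± 0.17 and 0.14 ± 0.16 for LPS against control and 0.47 ± 0.17 and 0.16 ± 0.16 for IL-4 then LPS against IL-4.

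The 19S genes gave calls among both the non-ATPase and the ATPase subunits, and the difference between these groups was not tested. Of the 14 non-ATPase genes 7 rose for LPS against control and 5 for IL-4 then LPS against IL-4. Of the 6 ATPase genes 2 and 1 rose. The shares of all tested genes called higher were 21.8% and 20.7%, and the class counts were not tested against them. The largest 19S change was in Psmd10, which encodes gankyrin, an assembly chaperone of the 19S base that is not part of the finished particle. It was at 61.0 and 78.8 CPM in IL-4 then LPS cells, 62.0 and 87.3 CPM in LPS cells, 21.2 and 33.4 CPM in IL-4 cells, and 23.5 and 31.2 CPM in control cells. No unexposed library came near the exposed ones, and the log2 fold change was 1.45 ± 0.28 (adjusted p = 0.00449) and 1.36 ± 0.28 (adjusted p = 0.00632). The other chaperones of the base named in this class, Psmd5 and Psmd9, did not pass. Psmd5 was at 54.7 and 40.2 CPM in IL-4 then LPS cells, 36.8 and 37.7 CPM in LPS cells, 58.2 and 54.5 CPM in IL-4 cells, and 56.6 and 45.4 CPM in control cells. Its log2 fold changes were -0.45 ± 0.18 (adjusted p = 0.0819) and -0.25 ± 0.18 (adjusted p = 0.311).

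Psmd7, Psmd11 and Psmd14 belong to the 19S lid, where Psmd14 is the enzyme that cuts ubiquitin from substrates. Psmd7 was at 103 and 121 CPM in IL-4 then LPS cells, 106 and 125 CPM in LPS cells, 69.7 and 70.3 CPM in IL-4 cells, and 59.4 and 62.9 CPM in control cells. Psmd11 was at 118 and 99.1 CPM in IL-4 then LPS cells, 110 and 95.6 CPM in LPS cells, 66.1 and 60.8 CPM in IL-4 cells, and 63.2 and 59.6 CPM in control cells. Psmd14 was at 104 and 102 CPM in IL-4 then LPS cells, 98.4 and 93.8 CPM in LPS cells, 71.3 and 65.5 CPM in IL-4 cells, and 60.5 and 59.0 CPM in control cells. For all 3 the exposed libraries stood clear of the others. The log2 fold changes were 0.92 ± 0.14 and 0.68 ± 0.14 for Psmd7, 0.74 ± 0.14 and 0.78 ± 0.14 for Psmd11, and 0.69 ± 0.11 and 0.59 ± 0.11 for Psmd14, with adjusted p-values from 0.00142 to 0.00617. All 6 calls held whichever library was left out. With library sizes alone as the scale, none of the 3 genes was called higher in either comparison.

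The remaining 19S calls were smaller and depended on single libraries. Psmd6, Psmd12 and the ubiquitin receptor gene Psmd4 were called higher for LPS against control (0.54 to 0.58). Without LPS replicate 3 their adjusted p-values were 0.139, 0.0931 and 0.143. Psmd6 and Psmd4 also missed the threshold without control replicate 1 (0.205 and 0.210), Psmd12 without control replicate 3 (0.121) and Psmd6 without either IL-4 library (0.0622 and 0.0618). Psmd6 was also called for IL-4 then LPS against IL-4 (0.53 ± 0.15, adjusted p = 0.0259, lost without any library of its groups, 0.0619 to 0.124). The ATPase genes Psmc4 and Psmc6 were called for LPS against control at 0.51 ± 0.17 and 0.41 ± 0.12, but not in DESeq2 (adjusted p = 0.0719 and 0.0682). Psmc4 missed the threshold whichever library was left out (0.0501 to 0.306), and Psmc6 without any control, LPS or IL-4 library (0.0759 to 0.189). Psmc6 was called again at 0.49 ± 0.12 for IL-4 then LPS against IL-4, and lost without IL-4 replicate 1 (0.0647) or 3 (0.0803) or IL-4 then LPS replicate 1 (0.0849). The scaffold genes of the base, Psmd1 and Psmd2, did not pass. Psmd2 was at 310 and 301 CPM in IL-4 then LPS cells, 301 and 312 CPM in LPS cells, 275 and 308 CPM in IL-4 cells, and 277 and 307 CPM in control cells (0.07 ± 0.13 in both comparisons). Psmd1 had -0.10 ± 0.13 and 0.07 ± 0.13. Psmd8, at 270.4 to 506 CPM over the libraries, had 0.46 ± 0.21 (adjusted p = 0.124) and 0.31 ± 0.21 (adjusted p = 0.285). Of the other lid and base genes, Psmd3 had 0.24 ± 0.15 and 0.35 ± 0.15 and Psmd13 0.18 ± 0.15 and 0.18 ± 0.15, and the assembly chaperone gene Psmd9 had 0.35 ± 0.17 and 0.09 ± 0.17. The ATPase genes Psmc1, Psmc2, Psmc3 and Psmc5 had 0.03 to 0.29 for LPS against control and 0.09 to 0.26 for IL-4 then LPS against IL-4. None of these 8 genes passed in either comparison.

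The 4 chaperones of the 20S core, Psmg1 to Psmg4, gave no call in either comparison and were low, at 2.77 to 12.7 CPM. Psmg1 was at 6.71 and 7.01 CPM in IL-4 then LPS cells, 5.18 and 5.53 CPM in LPS cells, 8.03 and 11.9 CPM in IL-4 cells, and 9.61 and 7.12 CPM in control cells. Both of its LPS-exposed groups lay below their unexposed ones, at log2 values of -0.64 ± 0.29 (adjusted p = 0.109) and -0.54 ± 0.28 (adjusted p = 0.167). Psmg2 had -0.17 ± 0.23 and -0.09 ± 0.23, Psmg4 0.39 ± 0.34 and -0.17 ± 0.33, and Psmg3 0.58 ± 0.32 and -0.77 ± 0.31. Psmc3ip, the name match, was at 1.02 to 3.08 CPM with no call.

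Summed read counts set the classes against each other within a library. The ratio of 20S alpha to 19S counts was 0.407 and 0.395 in IL-4 then LPS cells, 0.432 and 0.417 in LPS cells, 0.305 and 0.303 in IL-4 cells, and 0.305 and 0.296 in control cells. The ratio of immuno to constitutive 20S beta counts was 0.671 and 0.759 in IL-4 then LPS cells, 0.945 and 0.950 in LPS cells, 0.256 and 0.386 in IL-4 cells, and 0.233 and 0.367 in control cells. LPS-exposed libraries were higher in both ratios without overlap. For the second, IL-4 then LPS lay below LPS in both libraries. As a share of all counts, the immuno genes took 0.0538% and 0.0694% in IL-4 then LPS cells, 0.0620% and 0.0750% in LPS cells, 0.0191% and 0.0323% in IL-4 cells, and 0.0147% and 0.0261% in control cells. The 19S genes took a smaller share with LPS: 0.207% and 0.210% in IL-4 then LPS cells, 0.182% and 0.194% in LPS cells, 0.239% and 0.242% in IL-4 cells, and 0.220% and 0.230% in control cells.

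That last value shows how the calls of the constitutive genes depend on the scale. With library sizes alone, the median of all tested genes moved to -0.62 for LPS against control and -0.56 for IL-4 then LPS against IL-4. Higher calls then made up 21.2% and 22.5% of all calls, against 53.9% and 52.8% with TMM. On that scale 12 members were called higher and 15 lower in the first comparison, where 12.6% of all tested genes were called higher and 47.0% lower. In the second, 10 members were higher and 11 lower, where 12.6% and 43.5% of all tested genes were. Class medians with library sizes alone were 1.72 and 1.25 for immuno beta, 0.90 and 0.92 for activators, 0.31 and 0.21 for 20S alpha, -0.14 and -0.05 for 20S beta and -0.22 and -0.19 for 19S. A change of scale moves all genes by about the same amount, so the order of the classes is not affected by it. Under all 4 scalings tried, 12 members were called higher for LPS against control: Psma2, Psma3, Psma5, Psma6, Psmb6, Psmb8, Psmb9, Psmb10, Psmd10, Psme1, Psme2 and Psme2b. For IL-4 then LPS against IL-4 the 10 were these without Psma3 and Psmb6.

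**Figure D4:**
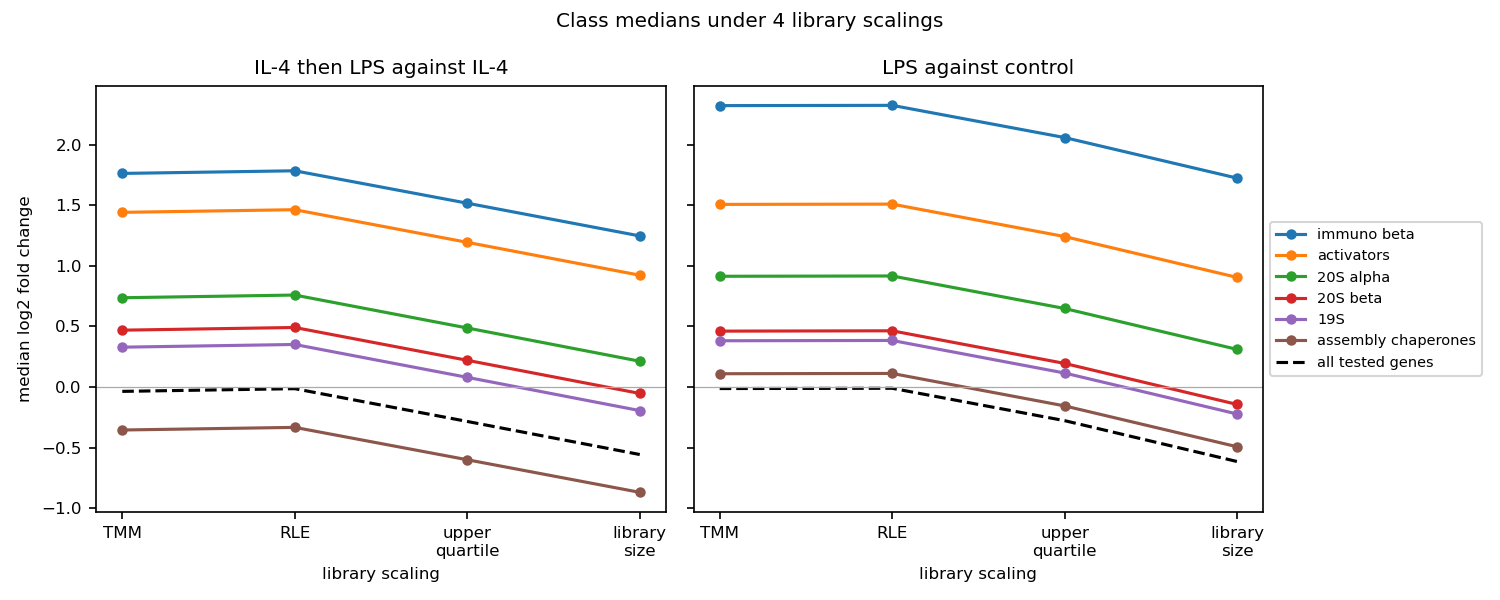
Median log2 fold change of each class under 4 library scalings, for IL-4 then LPS against IL-4 (left) and LPS against control (right), with all tested genes as a dashed line. Immuno beta, activators and 20S alpha stay above 0 under each scaling, while 20S beta and 19S lie below 0 with library size alone.

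Levels per kilobase of deposited gene length set genes beside each other only roughly. For 46 of the 50 members that length is all annotated exons of the gene merged, not the length of the transcript expressed. The orders below depend on it. In IL-4 then LPS cells Psmb10 averaged 230, Psme2b 228, Psmb6 209, Psma6 173 and Psme2 163 CPM per kilobase, and in LPS cells the values were 280, 259, 190, 177 and 162. In IL-4 cells Psmd8, a 19S lid gene, averaged 118 CPM per kilobase, Psmb6 99.9, Psmb5 87.8, Psma6 78.3 and Psme2b 74.0. In control cells Psmd8 averaged 100.3, Psmb6 78.4, Psmd2 72.3, Psma6 71.6 and Psmb5 63.1. Psmb10 thus ranked first of the members after LPS and at 50.3 CPM per kilobase below all of those 5 in control cells. Neighbours in these orders, such as Psmb10 and Psme2b, differed by less than the spread between libraries. The places of Psme2 and Psme2b are uncertain, since reads may have been divided between these copies.

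IL-4 alone changed no member by the test. For IL-4 against control 0 of 49 were called higher and 0 lower by edgeR, and 0 by DESeq2, where 0.0572% of all tested genes were called higher and 0.00817% lower. The members' median log2 fold change was 0.17, beside 0.00 over all tested genes, and 7.29% of all tested genes had an unadjusted p below 0.05. Among the members 3 did, and these are named after their values were seen: Psmg3 (0.97 ± 0.31, adjusted p = 0.513), Psmb5 (0.48 ± 0.19, adjusted p = 0.646) and Psma3 (0.31 ± 0.13, adjusted p = 0.677). Psmb8 and Psmb10 had 0.44 ± 0.37 and 0.43 ± 0.40 with overlapping groups, and Psmb9 had -0.02 ± 0.27. Without overlap, 18 members lay higher and 3 lower, beside 19.4% and 19.2% of all tested genes. The Psme1 and Psme2 values were -0.06 ± 0.14 and 0.42 ± 0.42. This comparison uses the same control libraries as LPS against control.

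Earlier IL-4 did not change the levels reached under LPS by the test either. For IL-4 then LPS against LPS 0 of 49 members were called higher and 0 lower by edgeR, and 0 by DESeq2, where 0.049% of all tested genes were called higher and 0.0163% lower. The median was 0.05 for the members and -0.03 for all tested genes, and 8.50% of all tested genes had an unadjusted p below 0.05. Of the members, 1 did, Psmc3, an ATPase gene, at 0.29 ± 0.12 (adjusted p = 0.556). The immuno genes had -0.29 ± 0.39 (Psmb10), -0.14 ± 0.26 (Psmb9) and -0.12 ± 0.37 (Psmb8). Psmb9 was the only 1 of these 3 whose libraries did not overlap, with both IL-4 then LPS libraries below both LPS libraries. In all, 12 members lay higher and 5 lower without overlap, beside 16.6% and 19.8% of all tested genes.

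The test of the difference itself, the LPS response after IL-4 minus the response without it, called 0 members and 0 of all 12234 genes tested by edgeR. At an unadjusted p below 0.05 there were 322 genes (2.63%), and DESeq2 called 3 higher and 1 lower, none of them a member. The members' median difference was -0.09, beside -0.03 over all tested genes. The immuno genes had -0.71 ± 0.56 (Psmb10), -0.56 ± 0.52 (Psmb8) and -0.12 ± 0.37 (Psmb9), and Psme2 had -0.42 ± 0.59. For Psmb8 and Psmb10 the difference was little larger than its SE. The single member with an unadjusted p below 0.05 was Psmg3 (-1.36 ± 0.45, adjusted p = 1.0). It was at 3.65 and 3.50 CPM in IL-4 then LPS cells, 4.48 and 4.84 CPM in LPS cells, 5.0 and 7.25 CPM in IL-4 cells, and 2.77 and 3.46 CPM in control cells.

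Genes that act with the proteasome were followed as lists. On the TMM scale, 21.8% of all tested genes were called higher and 18.6% lower for LPS against control. For IL-4 then LPS against IL-4 the shares were 20.7% and 18.6%. Of 13 proteasome-associated genes, 6 rose and 1 fell for LPS against control, and 5 rose and 1 fell for IL-4 then LPS against IL-4. With library sizes alone these counts were 1 higher and 4 lower, and 1 and 2, set against the shares of all tested genes on that scale given above. Txnl1, a thioredoxin-like protein of the 19S particle, rose by 1.20 ± 0.14 in both comparisons (adjusted p = 0.0004 in each). Ecpas, an adaptor, rose by 0.82 ± 0.15 and 0.81 ± 0.15. Pomp, the maturation chaperone of the 20S core, was at 154 and 165 CPM in IL-4 then LPS cells, 119 and 131 CPM in LPS cells, 93.3 and 101 CPM in IL-4 cells, and 71.1 and 87.4 CPM in control cells. It rose by 0.66 ± 0.14 and 0.71 ± 0.14 on the log2 scale, and the first call was lost without control replicate 1 (adjusted p = 0.0949) or LPS replicate 3 (0.0543), the second without IL-4 replicate 1 (0.0557). Sem1, a small 19S subunit outside the Psm names, rose for LPS against control (0.78 ± 0.24, adjusted p = 0.0338). Its call was lost without control replicate 1 (0.205), LPS replicate 3 (0.171) or either IL-4 library (0.0672 and 0.0673). Ubqln2, a shuttle factor, fell by 0.73 and 0.66.

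Of 6 regulators of proteasome genes, 2 rose and 2 fell for LPS against control, where 21.8% of all tested genes rose and 18.6% fell. For IL-4 then LPS against IL-4, 2 rose and 1 fell, where 20.7% and 18.6% of all tested genes did. With library sizes alone, 2 were higher and 3 lower in each. The counts of this list were not tested against those shares. Nfe2l1 encodes NRF1, the factor that drives proteasome genes when the proteasome is short. It was at 682 and 903 CPM in IL-4 then LPS cells, 618 and 825 CPM in LPS cells, 266 and 356 CPM in IL-4 cells, and 231 and 309 CPM in control cells, and rose by 1.42 ± 0.25 (adjusted p = 0.0031) and 1.35 ± 0.25 (adjusted p = 0.0040). Ddi2 encodes the protease that activates NRF1. It was at 19.8 and 23.6 CPM in IL-4 then LPS cells, 30.4 and 23.8 CPM in LPS cells, 94.1 and 106 CPM in IL-4 cells, and 103 and 112 CPM in control cells, and fell by 1.99 and 2.20 on the log2 scale. The 2 genes thus moved in opposite directions, and neither overlapped between exposed and unexposed libraries. Mafk, a small Maf partner, rose by 3.18 ± 0.14 and 2.84 ± 0.14.

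Of 12 interferon-pathway regulators of the immunoproteasome genes, 10 rose and 1 fell in each comparison. For this list and the peptide and ubiquitin lists below, the shares of all tested genes were again 21.8% higher and 18.6% lower, and 20.7% and 18.6%. Irf1, a transcription factor that binds immunoproteasome promoters, was at 1058 and 1167 CPM in IL-4 then LPS cells, 925 and 1127 CPM in LPS cells, 58.2 and 111 CPM in IL-4 cells, and 48.8 and 84.5 CPM in control cells. It rose by 3.95 ± 0.38 and 3.72 ± 0.38. Jak2, the kinase of the interferon gamma receptor, rose by 4.30 ± 0.19 and 4.37 ± 0.19, and Nlrc5, the transactivator of MHC class I genes, by 3.79 ± 0.24 and 3.60 ± 0.24. The gene that fell was Ifngr1, at -0.56 ± 0.17 and -0.74 ± 0.18 (adjusted p = 0.0352 and 0.0121). The first call was lost without control replicate 3 (0.152) or LPS replicate 1 (0.139) or 3 (0.0881), and the second without IL-4 replicate 3 (0.0905) or IL-4 then LPS replicate 3 (0.0876). Of 8 genes of peptide transport and trimming, 7 rose and 0 fell in each comparison, with Tap1 at 3.82 ± 0.36 and 3.58 ± 0.36 and Tap2 at 2.81 ± 0.33 and 2.18 ± 0.33. Tapbp, which bridges the transporter and MHC class I, had 2.03 ± 0.36 and 1.63 ± 0.35. Of 7 ubiquitin and E1 genes, 5 rose and 0 fell in each comparison. Uba7, the E1 of the ubiquitin-like protein ISG15, had the largest change (2.70 ± 0.22 and 2.59 ± 0.22). With library sizes alone, 1 gene of this list was higher and 1 lower in the first comparison, and 2 and 1 in the second. On that scale the interferon list had 6 higher and 1 lower, and 9 and 2, and the peptide list 5 and 0, and 5 and 1. In the IL-4 comparisons no gene of these 5 lists was called.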

How the data were processed

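RNA from 8 BMDM libraries was sequenced. The deposited table holds raw read counts per gene, made by the authors with HISAT2, StringTie and HTSeq on mm10, per the submitters' processing notes; versions and strandedness are not given in the sources used here. The deposited table also gives gene lengths and coordinates (other columns), used for levels per kilobase. The table's other 6 count columns, which match no label, were not used. Counts were tested in R 4.3.3 with edgeR 4.0.16 (filterByExpr, TMM factors, quasi-likelihood fit with 1 mean per group over all 8 libraries, Benjamini-Hochberg adjustment over 12234 genes, threshold 0.05). Alternatives were DESeq2 1.42.0, library sizes alone, upper-quartile and RLE factors, no filter, only the groups compared, a replicate block and leaving out each library. Ratios were tested with exact permutation tests. The edgeR step was tested on simulated data. Named were the immuno, constitutive catalytic and PA28 genes, per class up to 3 called members of largest change in each direction, and up to 3 per further list. Other members were described to account for all. Members and lists were chosen with earlier results of these data known. Of the proteasome-associated list, 1 of 14 genes, Paaf1, was not analysed here. Member coordinates were checked against GENCODE M21, where 48 of 50 were the same. Counting error at these depths is small for members above 10 CPM, and with 2 libraries per group the precision is set by the spread between libraries.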

Additional observations from a re-analysis of the deposited data

How the results depend on the processing

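The counts of members called depended most on library scaling. With library sizes alone 12 were higher and 15 lower for LPS against control, and 10 higher and 11 lower for IL-4 then LPS against IL-4 (12.6% and 47.0%, and 12.6% and 43.5%, of all tested genes). With upper-quartile factors 16 were higher and 2 lower in the first (16.7% and 29.0%) and 16 higher and 1 lower in the second (15.7% and 28%). In the first, 1 member was lower without the filter on low counts. Without single libraries the first comparison gave 17 to 23 higher calls and the second 13 to 22, the lowest without IL-4 replicate 1 or IL-4 then LPS replicate 3. Without the copy Psme2b and the name match Psmc3ip, an alternative chosen after seeing the data, 24 and 22 were higher. Same-numbered libraries deviated together (correlations of 0.343 to 0.524 between groups), but the labels do not say what a number shares. With the number as a replicate block, 29 members were higher and 1 lower for LPS against control (28.2% and 25.5% of all tested genes) and 31 higher and 0 lower for IL-4 then LPS against IL-4 (26.0% and 25.8%). Permuted within replicate numbers, the ratio differences (1.60 for Psmb8 to Psmb5, 1.13 for Psmb9 to Psmb6, 1.57 for Psmb10 to Psmb7) had an exact p of 0.0556, the smallest possible there. Within libraries without IL-4 they were 1.71, 1.08 and 1.86 and with IL-4 1.49, 1.18 and 1.29 (exact p = 0.333, the smallest for 2 against 2). Psmb5 turned negative with library sizes alone (-0.14 for LPS against control, -0.45 for IL-4 then LPS against IL-4) and in that comparison with upper-quartile factors (-0.17) or a library left out (-0.066 to 0.25). The Psme1 difference of responses was 0.018 with library sizes alone. Uncalled values that changed sign with a library left out ranged as follows. For IL-4 against control, Psmb8 was -0.062 to 0.93, Psmb9 -0.49 to 0.28, Psmb10 -0.13 to 1.01, Psme1 -0.22 to 0.039 and Psme2 -0.28 to 0.96. For IL-4 then LPS against LPS, Psmb5 was -0.11 to 0.32, Psmb6 -0.10 to 0.38, Psmb7 -0.053 to 0.34, Psmb8 -0.45 to 0.14 and Psme2 -0.23 to 0.27. For the difference of responses, Psmb6 was -0.45 to 0.12, Psmb7 -0.36 to 0.053, Psmb9 -0.40 to 0.37, Psme1 -0.13 to 0.13 and Psme2 -0.92 to 0.31. The causes were not tested. Depth limits Psmb11, Psma8 and Psmc3ip.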

Other observations

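Replicate 3 stood above replicate 1 for all 3 immuno genes in all 4 groups. The log2 ratio of replicate 3 to replicate 1 in CPM for Psmb10 was 0.48 in IL-4 then LPS cells, 0.39 in LPS cells, 0.89 in IL-4 cells and 1.03 in control cells. For Psme2 it was 0.45, 0.48, 1.1 and 0.95 in the same groups. The same held for 6 of 7 constitutive 20S beta genes, 4 of 5 activators and 4 of 8 20S alpha genes. Of all tested genes, 18.3% were higher in replicate 3 in all 4 groups. The lid genes Psmd11 and Psmd14 were lower in replicate 3 in all 4 groups, as were 18.9% of all tested genes. Of 12 interferon-pathway regulators, 5 were higher in replicate 3 in all groups, and of 8 peptide transport and trimming genes 6 were.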
